A study of Mus musculus with 9 samples.

Results

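The genes of MHC class I antigen presentation were described across 9 arrays of mouse embryonic fibroblasts. The list named 10 genes: Tap1, Tap2, Tapbp, Psmb8, Psmb9, Psmb10, B2m, H2-K1, H2-D1 and Erap1. A gene was measured where a row of the array table carried its symbol alone, which held for 8 of the 10, among 19938 genes tested in all. H2-K1 and H2-D1, the genes of the class I heavy chains, had no such row, because the 2 rows that listed them each held both symbols and a further one, and they were not analysed here. Each of the 8 measured genes had 1 row with its symbol alone. Tapbp was also listed in 2 rows with several symbols, which were not read.

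The cells were immortalized fibroblasts (MEFs) of an ICR background. They were infected for 2 h with a virus (an adenovirus, 1e8 pfu per ml) that makes the cells express a short hairpin RNA, or shRNA, and were kept for 70 h in normal medium, at 37 degrees with 10% serum. The groups received an shRNA against HSF1, the heat shock transcription factor, an shRNA against RPA1, a subunit of the complex RPA that coats single-stranded DNA, or a scrambled control shRNA, with 3 arrays each. All 3 groups, the control included, thus carried an adenovirus and an expressed hairpin, and the arrays analysed here hold no uninfected cells. The study asked whether HSF1 and RPA together control gene expression.

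In class I presentation, the proteasome cuts cytosolic proteins into peptides, and in the immunoproteasome the inducible catalytic subunits encoded by Psmb8, Psmb9 and Psmb10 take the places of Psmb5, Psmb6 and Psmb7. The transporter made of TAP1 and TAP2 carries peptides into the endoplasmic reticulum, where ERAP1 trims them and tapasin, the product of Tapbp, helps to load them. The loaded complex of heavy chain, beta-2 microglobulin (B2m) and peptide goes to the cell surface, where CD8 T cells read it. Fibroblasts express this machinery, and interferons are known to raise it through STAT and IRF factors and the coactivator NLRC5.

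Facts of the whole series bear on the values below. The median log2 signal of an array lay between 7.72 and 7.81. Rpa1 averaged 9.39 ± 0.04 in RPA1 shRNA cells and 11.41 ± 0.01 in scrambled cells (SD, n = 3 each), a log2 difference of -2.02. Hsf1 itself was not analysed here. RPA1 shRNA array 3 stood apart: over the 506 genes whose RPA1 shRNA arrays 1 and 2 lay on average more than 2-fold from the scrambled mean, its difference was 0.675 times theirs (median), against 1.08 for array 1 and 1.06 for array 2 by the same measure. Of all genes tested 9.89% rose and 6.21% fell under HSF1 shRNA, and 15.4% rose and 14.7% fell under RPA1 shRNA. Of 11 fibroblast markers 1 rose and 4 fell under HSF1 shRNA, and 0 rose and 7 fell under RPA1 shRNA by limma. Pdgfra, a growth factor receptor gene, was the most reduced, at 9.53 ± 0.14 in HSF1 shRNA cells, 8.73 ± 0.01 in RPA1 shRNA cells and 10.42 ± 0.08 in scrambled cells (SD, n = 3 each; log2 differences of -0.90 and -1.70). S100a4 was the one that rose, with a log2 difference of 1.16 ± 0.18 (SE) under HSF1 shRNA. Vim did not pass in either comparison and averaged 14.09, 14.11 and 14.01 in the same order of groups. These are bulk cultures, so a change in the share of cells and a change in RNA per cell cannot be told apart. Whether replicate arrays stem from separate cultures is not in the labels, so p-values measure only the spread between these samples, which may be technical.

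Tap1 stood out among the transporter genes: it was 1.89-fold higher under RPA1 shRNA and close to the control under HSF1 shRNA. Tap1 (probe set 10444244, chromosome 17, 34187556 to 34197225, GRCm38.p6) encodes a subunit of the peptide transporter. It read 9.55, 9.45 and 9.26 under HSF1 shRNA, 10.45, 10.51 and 9.89 under RPA1 shRNA and 9.33, 9.30 and 9.45 in scrambled cells, as log2 signal. All RPA1 shRNA arrays lay above all others, array 3 by the smallest margin, while the HSF1 shRNA and scrambled arrays overlapped. The log2 difference from scrambled was 0.92 ± 0.15 under RPA1 shRNA (SE, limma adjusted p = 0.0013) and 0.06 ± 0.15 under HSF1 shRNA (adjusted p = 0.85, 95% interval -0.27 to 0.39). Here and below limma was fitted to all 9 arrays, p-values were adjusted over all 19938 genes by Benjamini-Hochberg, and a gene was called, and said to have risen or fallen, at an adjusted p under 0.05. Without RPA1 shRNA array 3 the Tap1 difference under RPA1 shRNA was 1.11 (adjusted p = 1.4e-05).

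Psmb9, which encodes an immunoproteasome subunit, lies next to Tap1 and is read in the opposite direction. In RefSeq (GRCm38.p6) the start sites lie on either side of 225 bases, so the windows of 250 bases before each start share those 225. They are shown because the neighbours share this region while one passed the threshold under RPA1 shRNA and the other did not. Each is printed 5′ to 3′ on its gene's strand, Tap1 from chr17:34187306-34187555 (plus strand) and Psmb9 from chr17:34187331-34187580 (minus strand). Capitals mark the only match among 5 motifs searched on both strands, the heat shock element core GAANNTTC, and it is the same site (34187517 to 34187524) seen from both sides.
Tap1: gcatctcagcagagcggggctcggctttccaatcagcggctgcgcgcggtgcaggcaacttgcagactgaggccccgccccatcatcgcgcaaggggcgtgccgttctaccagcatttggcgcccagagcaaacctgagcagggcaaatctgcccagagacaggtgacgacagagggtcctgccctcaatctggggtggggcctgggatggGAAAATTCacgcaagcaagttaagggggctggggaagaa
Psmb9: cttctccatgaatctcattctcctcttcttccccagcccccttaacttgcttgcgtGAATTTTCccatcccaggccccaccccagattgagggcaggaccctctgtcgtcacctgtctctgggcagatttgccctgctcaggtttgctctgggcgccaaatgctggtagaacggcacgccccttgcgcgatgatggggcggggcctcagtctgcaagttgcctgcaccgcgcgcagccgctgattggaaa
The heat shock element core was present in 6.70% of 32841 such windows of the RefSeq table. A match describes the letters only. The search took the exact letters of each motif, so here and below a missing match does not show that a site is missing.

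Psmb9 (probe set 10450145) read 9.08, 8.95 and 8.96 under HSF1 shRNA, 9.28, 9.30 and 8.98 under RPA1 shRNA and 9.06, 9.0 and 9.07 in scrambled cells. RPA1 shRNA arrays 1 and 2 lay above every other array, and array 3 lay below the lowest scrambled array. The log2 difference from scrambled was 0.14 ± 0.08 under RPA1 shRNA (limma adjusted p = 0.25, 95% interval -0.05 to 0.33) and -0.04 ± 0.08 under HSF1 shRNA (adjusted p = 0.78). Without RPA1 shRNA array 3 it passed under RPA1 shRNA, at 0.25 (adjusted p = 0.007).

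**Figure D1:**
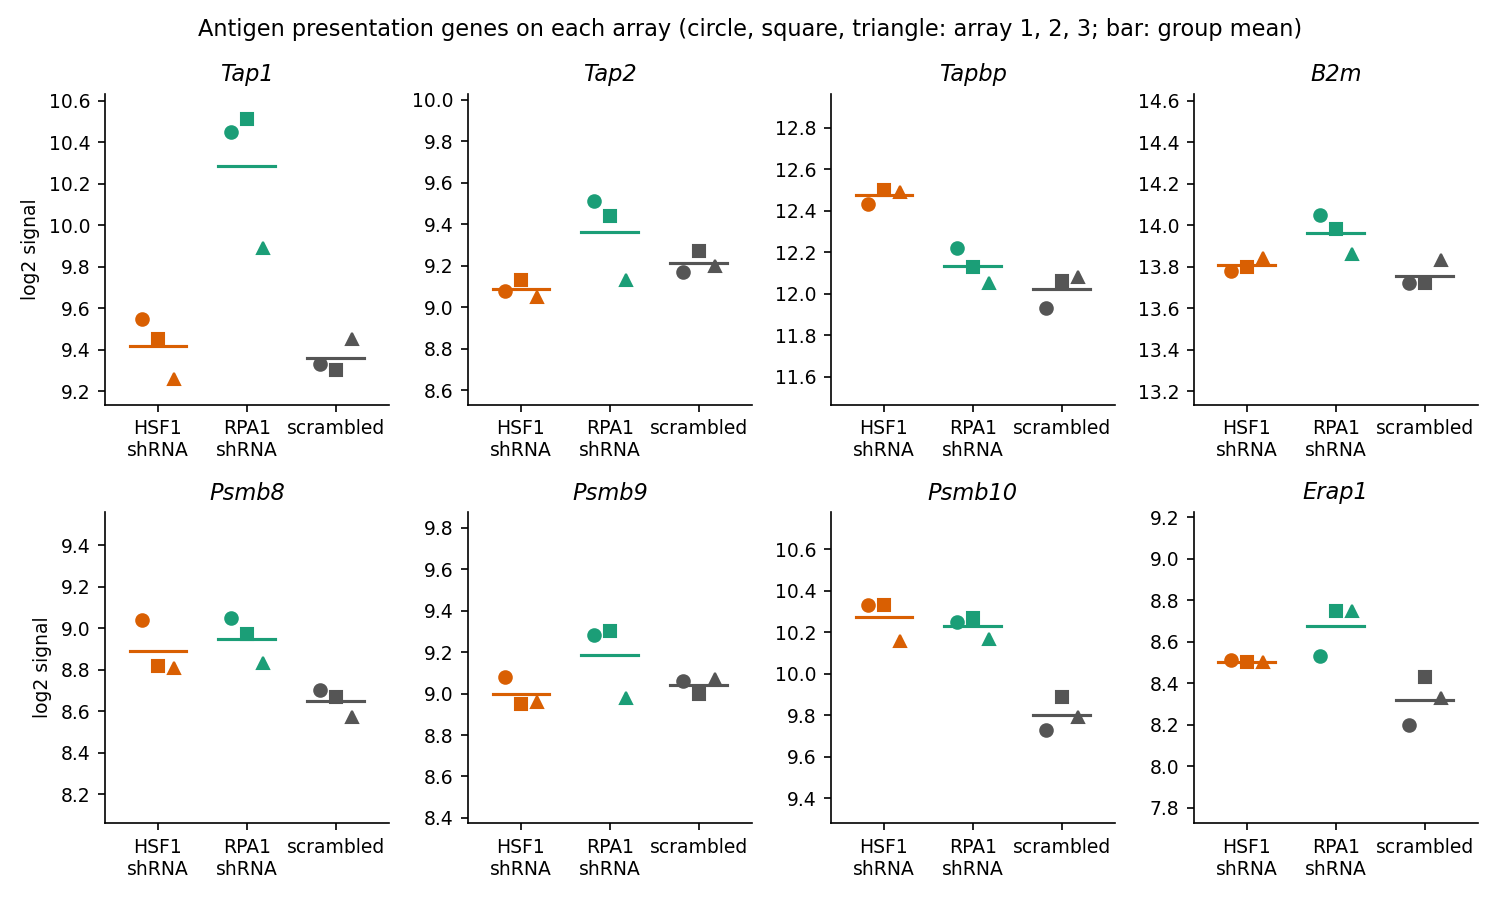
Log2 signal of the 8 measured genes on each array, with HSF1 shRNA, RPA1 shRNA and scrambled groups from left to right. Symbols mark arrays 1, 2 and 3, bars mark group means, and every panel spans the same range of log2 units. Tap1 lies between 9.89 and 10.51 in RPA1 shRNA arrays and between 9.26 and 9.55 in all others, and Tapbp is highest in HSF1 shRNA arrays (12.43 to 12.50).

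Tap2, which encodes the partner subunit of the transporter, did not pass in any comparison with scrambled. Tap2 (probe set 10444268, chromosome 17, 34204479 to 34216321) read 9.08, 9.13 and 9.05 under HSF1 shRNA, 9.51, 9.44 and 9.13 under RPA1 shRNA and 9.17, 9.27 and 9.20 in scrambled cells. RPA1 shRNA arrays 1 and 2 were the highest, array 3 lay below the scrambled arrays, and all HSF1 shRNA arrays lay below all scrambled arrays. The log2 difference was 0.14 ± 0.09 under RPA1 shRNA (limma adjusted p = 0.27) and -0.13 ± 0.09 under HSF1 shRNA (adjusted p = 0.39, 95% interval -0.33 to 0.07). Without RPA1 shRNA array 3 Tap2 passed under RPA1 shRNA (0.26, adjusted p = 0.0039).

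Tapbp showed the reverse order of the knockdowns. Tapbp (probe set 10444068, chromosome 17, 33919478 to 33929290), the tapasin gene, read 12.43, 12.50 and 12.49 under HSF1 shRNA, 12.22, 12.13 and 12.05 under RPA1 shRNA and 11.93, 12.06 and 12.08 in scrambled cells. The HSF1 shRNA arrays lay above all others, and the RPA1 shRNA and scrambled arrays overlapped. Tapbp rose 1.36-fold under HSF1 shRNA (log2 0.45 ± 0.06, limma adjusted p = 0.0015). Under RPA1 shRNA its log2 difference was 0.11 ± 0.06 (adjusted p = 0.21, 95% interval -0.03 to 0.25). The call under HSF1 shRNA was kept under all 18 alternatives, with differences of 0.40 to 0.48. The 250 bases before its start (chr17:33919228-33919477, plus strand, GRCm38.p6), printed because Tapbp was the member that separated the knockdowns in this direction, held none of the 5 motifs.
Tapbp: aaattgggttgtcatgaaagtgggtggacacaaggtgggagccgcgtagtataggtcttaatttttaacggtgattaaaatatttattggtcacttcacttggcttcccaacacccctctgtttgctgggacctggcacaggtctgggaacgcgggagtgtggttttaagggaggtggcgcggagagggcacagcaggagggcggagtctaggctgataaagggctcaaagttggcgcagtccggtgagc

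The immunoproteasome genes differed among themselves. Psmb10 rose under both knockdowns, Psmb8 passed under RPA1 shRNA, and Psmb9 (above) passed under neither. Psmb10 (probe set 10581378, chromosome 8, 105935728 to 105938392) read 10.33, 10.33 and 10.16 under HSF1 shRNA, 10.25, 10.27 and 10.17 under RPA1 shRNA and 9.73, 9.89 and 9.79 in scrambled cells. Every knockdown array lay above every scrambled array, and the knockdowns overlapped. The rise was 1.38-fold under HSF1 shRNA (log2 0.47 ± 0.07, limma adjusted p = 0.0017) and 1.34-fold under RPA1 shRNA (0.42 ± 0.07, adjusted p = 0.001). Both calls were kept under all 18 alternatives. Both comparisons use the same scrambled arrays.

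Psmb8 (probe set 10444258, chromosome 17, 34198195 to 34201454) read 9.04, 8.82 and 8.81 under HSF1 shRNA, 9.05, 8.97 and 8.83 under RPA1 shRNA and 8.70, 8.67 and 8.57 in scrambled cells. All knockdown arrays again lay above all scrambled arrays. Under RPA1 shRNA it rose 1.23-fold (by 0.30 ± 0.08 on the log2 scale, limma adjusted p = 0.017), and its log2 difference under HSF1 shRNA was 0.25 ± 0.08 (adjusted p = 0.065, 95% interval 0.07 to 0.42). The call under RPA1 shRNA was lost without RPA1 shRNA array 1 (0.25, adjusted p = 0.067) and without scrambled array 3 (0.26, adjusted p = 0.07). Under HSF1 shRNA Psmb8 passed without RPA1 shRNA array 3 (adjusted p = 0.032), whose loss changes only the pooled spread, and in 4 further alternatives (lowest adjusted p = 0.023).

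B2m, the gene of the invariant light chain, read 13.78, 13.80 and 13.84 under HSF1 shRNA, 14.05, 13.98 and 13.86 under RPA1 shRNA and 13.72, 13.72 and 13.83 in scrambled cells (probe set 10475414, chromosome 2, 122147687 to 122153082). The lowest RPA1 shRNA array lay just above the highest scrambled one. B2m was 1.16-fold higher under RPA1 shRNA (by 0.21 ± 0.06 on the log2 scale, limma adjusted p = 0.024), and stood at 0.05 ± 0.06 under HSF1 shRNA (adjusted p = 0.65, 95% interval -0.09 to 0.18). The rise did not pass without RPA1 shRNA array 1 (0.17, adjusted p = 0.087) or array 2 (0.20, 0.064), without scrambled array 1 (0.20, 0.079) or array 2 (0.19, 0.082), with only the 6 arrays compared (0.055) or with the replicate block (0.051).

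The window before the B2m start was the only one of the measured members with matches to more than 1 motif. The 250 bases (chr2:122147437-122147686, plus strand, GRCm38.p6) are printed with the interferon-stimulated response element (ISRE) core, which is GAAA, any 2 bases and GAAA, and a kappa B consensus site in capitals, at bases -139 to -130 and -126 to -117 from the start.
B2m: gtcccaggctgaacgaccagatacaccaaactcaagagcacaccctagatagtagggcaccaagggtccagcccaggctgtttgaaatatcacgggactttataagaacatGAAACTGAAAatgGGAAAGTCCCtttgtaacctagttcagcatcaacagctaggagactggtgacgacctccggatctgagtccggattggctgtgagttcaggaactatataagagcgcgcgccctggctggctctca
The ISRE core was present in 2.98% of all windows and the kappa B consensus in 3.90%. Psmb8 held 1 match to the GAS motif TTCNNNGAA (7.02% of all windows) and Erap1 1 match to the p53 decamer (7.13%), and Psmb10 held none. The Erap1 window (74639603 to 74639852) and the H2-K1 windows precede transcript starts that lie inside the gene intervals of the annotation, not their outer ends. The windows of H2-K1 and H2-D1 each held the kappa B consensus. No motif was shared by the members called under RPA1 shRNA. Of the 10 listed genes 9 had a window, and Tap2 had none.

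**Figure D2:**
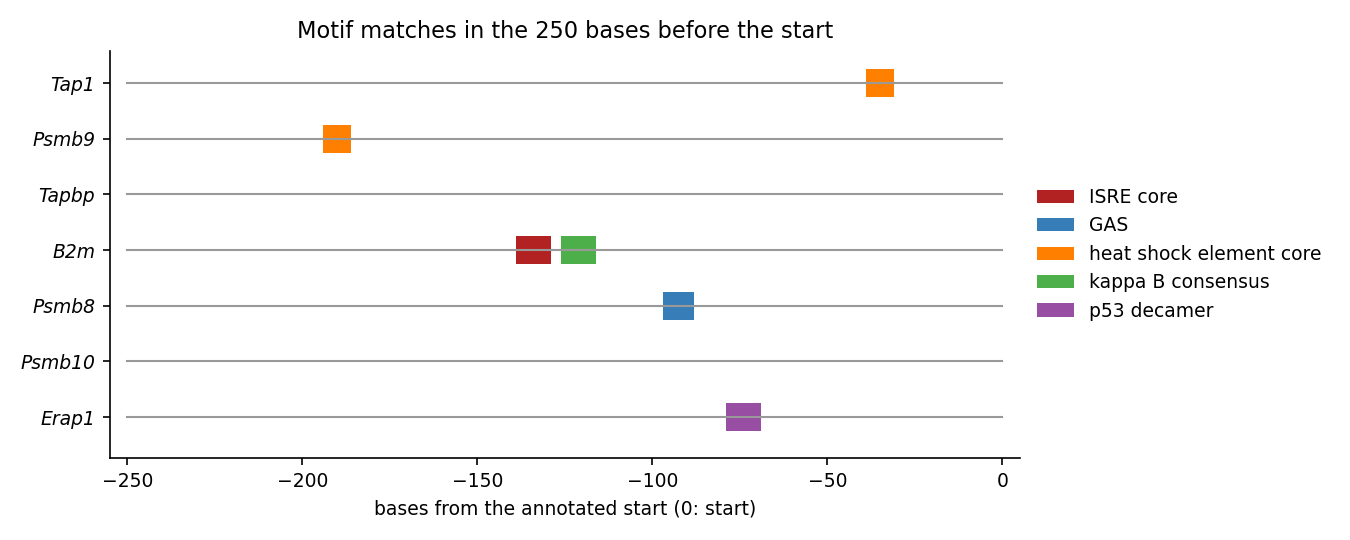
Matches to 5 motifs in the 250 bases before a RefSeq transcript start of 7 measured genes (for Erap1 a start inside the gene interval), plotted as distance from the start in bases on each gene's own strand. Tap1 and Psmb9 hold 1 heat shock element core each, which is the same site in their shared region, B2m holds the ISRE core beside a kappa B site, and Tapbp and Psmb10 hold no match.

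Erap1, the gene of the trimming peptidase, read 8.51, 8.50 and 8.50 under HSF1 shRNA, 8.53, 8.75 and 8.75 under RPA1 shRNA and 8.20, 8.43 and 8.33 in scrambled cells (probe set 10406205, chromosome 13, 74639573 to 74693205). The groups did not overlap, with RPA1 shRNA arrays highest and scrambled arrays lowest. Here RPA1 shRNA array 1, not array 3, lay nearest to the control. With RPA1 shRNA Erap1 rose 1.28-fold (by 0.35 ± 0.08 on the log2 scale, limma adjusted p = 0.0057) and its difference under HSF1 shRNA was 0.18 ± 0.08 (adjusted p = 0.14, 95% interval 0.02 to 0.35). The RPA1 shRNA call was kept under all 18 alternatives.

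In all, 5 of the 8 measured genes rose and 0 fell under RPA1 shRNA by limma (5 higher and 0 lower at an unadjusted p under 0.05). Over all genes 30.1% passed in this comparison, 15.4% as rises and 14.7% as falls. The median log2 difference of the 8 was 0.26, against 0.02 over all genes. The count was 7 without RPA1 shRNA array 3 and 3 (Tap1, Psmb10 and Erap1) without array 1. Under HSF1 shRNA 2 of the 8 rose and 0 fell (4 higher and 0 lower at an unadjusted p under 0.05), against 9.89% called higher and 6.21% called lower (16.1% in all) over all genes, and the median was 0.12, against 0.04. The groups did not overlap for 5 of 8 genes in each of these comparisons, where 37.9% of all genes did not overlap under HSF1 shRNA and 41.0% under RPA1 shRNA.

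The knockdowns were also compared directly. Tap1 was lower under HSF1 shRNA than under RPA1 shRNA, 9.42 ± 0.14 against 10.28 ± 0.34 (SD, n = 3), a log2 difference of -0.86 ± 0.15 (limma adjusted p = 0.0028). Tapbp was higher, 12.47 ± 0.04 under HSF1 shRNA against 12.14 ± 0.09 under RPA1 shRNA, by 0.34 ± 0.06 (adjusted p = 0.004). These 2 of 8 passed, where 24.4% of all genes did (14.7% higher and 9.71% lower under HSF1 shRNA), and both were kept under all 18 alternatives. The groups did not overlap for 4 of 8 genes, against 34.5% of all genes. Tap2 (-0.27 ± 0.09, adjusted p = 0.051), B2m (-0.16 ± 0.06, 0.078), Erap1 (-0.17 ± 0.08, 0.14) and Psmb9 (-0.19 ± 0.08, 0.15) did not pass. For Psmb8 the 95% interval of the difference was -0.23 to 0.12 and for Psmb10 -0.10 to 0.19. Without RPA1 shRNA array 3 Tap1, Tap2 (-0.39, adjusted p = 0.00047), Psmb9 (-0.29, 0.0033) and B2m (-0.21, 0.013) passed as lower under HSF1 shRNA and Tapbp as higher (0.29, 0.005), and without RPA1 shRNA array 1 Erap1 passed (-0.24, 0.045).

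**Figure D3:**
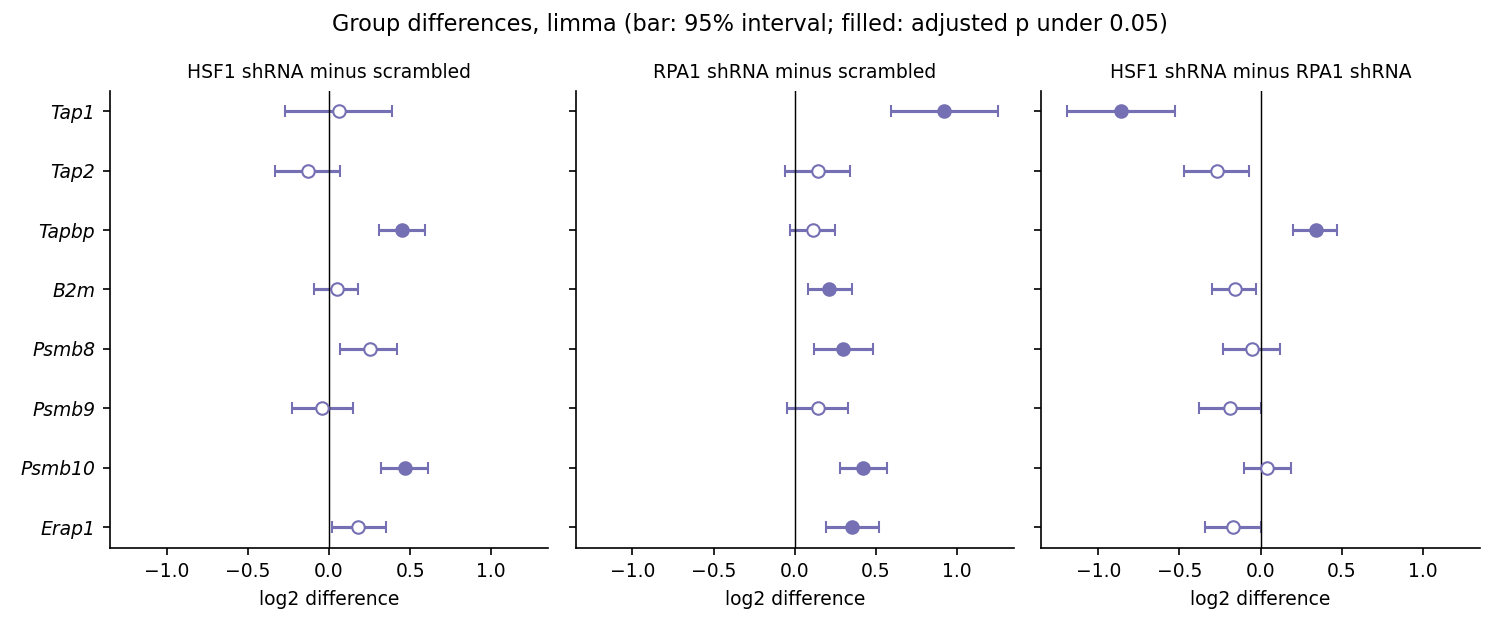
Log2 difference of each measured gene in the 3 comparisons (points, with the 95% interval from limma as bars, filled where the adjusted p was under 0.05). Tap1 is at 0.92 under RPA1 shRNA and at 0.06 under HSF1 shRNA, and Tapbp at 0.11 and 0.45 in the same order of knockdowns.

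Over the 9 arrays the members did not move as 1 block. Tap1 went closely with B2m (Pearson r = 0.91), Psmb9 (0.85) and Tap2 (0.81), while Tapbp went with Psmb10 (0.72) and against Tap2 (-0.36). These correlations describe 9 arrays in 3 groups, which share the group differences given above. The 8 genes averaged, each centred on its own mean, 0.04, 0.00 and -0.05 under HSF1 shRNA, 0.23, 0.23 and 0.02 under RPA1 shRNA and -0.20, -0.14 and -0.14 in scrambled cells. RPA1 shRNA array 3 lay among the HSF1 shRNA arrays in this average. The 5 other genes whose profile over the arrays was most like this average were Gabpb2 (r = 0.991), Pam (0.990), Coq2 (0.989), Etnk1 (0.987) and Endod1 (0.986).

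The partners of the pathway were described from lists that hold none of the 8 genes. For comparison with all list counts below, 9.89% of all genes rose and 6.21% fell under HSF1 shRNA. Under RPA1 shRNA 15.4% of all genes rose and 14.7% fell. Peptide loading partners and chaperones gave 4 rises and 1 fall of 8 under HSF1 shRNA (median log2 difference 0.16) and 4 rises and 0 falls under RPA1 shRNA (0.16). With 1 array left out in turn, the rises ranged from 2 to 5 and from 2 to 4. For each of the 9 partner lists the highest count of rises under HSF1 shRNA was reached without RPA1 shRNA array 3. For some lists the same count was also reached without another array. Ranges with 1 array left out are given below for the other lists. Hspa5, the gene of the chaperone BiP, rose under HSF1 shRNA (0.36 ± 0.04, limma adjusted p = 0.00079) and RPA1 shRNA (0.26 ± 0.04, 0.0014). Uggt1, which encodes a glycoprotein folding sensor, rose likewise (0.22 ± 0.04, 0.0086, and 0.37 ± 0.04, 0.00023). Ganab, a glucosidase gene of the same quality control, fell under HSF1 shRNA (-0.55 ± 0.06, 0.00047) and stood at -0.14 ± 0.06 under RPA1 shRNA (0.12), and the knockdowns differed (-0.41 ± 0.06, 0.0013).

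Of the proteasome activator and assembly genes, 4 of 5 rose under HSF1 shRNA and 3 of 5 under RPA1 shRNA, with 0 falls (2 to 4 and 2 to 3 rises with 1 array left out). Pomp, which encodes the maturation factor of the core particle, read 10.96, 10.93 and 10.87 under HSF1 shRNA, 10.89, 10.98 and 10.95 under RPA1 shRNA and 10.43, 10.40 and 10.43 in scrambled cells. It rose by 0.50 ± 0.05 (limma adjusted p = 0.00028) under HSF1 shRNA and 0.52 ± 0.05 (5.5e-05) under RPA1 shRNA. Psme3, an activator gene, rose by 0.23 ± 0.05 under HSF1 shRNA (0.0078) and 0.48 ± 0.05 under RPA1 shRNA (6.5e-05), and the knockdowns differed (-0.25 ± 0.05, 0.0041). Psme1, another activator gene, passed under neither, at 0.15 ± 0.07 under HSF1 shRNA (0.16) and -0.11 ± 0.07 under RPA1 shRNA (0.25). Psme2 rose by 0.32 ± 0.07 (0.015) and 0.23 ± 0.07 (0.038) in the same order. Its calls were lost in 3 and 7 of 18 alternatives. Of the constitutive catalytic genes Psmb5, Psmb6 and Psmb7, 1 rose under HSF1 shRNA (0 to 2 with 1 array left out) and 2 under RPA1 shRNA (1 to 2), with Psmb7 at 0.25 ± 0.06 under RPA1 shRNA (0.0071). Of 11 other core subunit genes 0 passed by limma under HSF1 shRNA (5 higher at an unadjusted p under 0.05, and 5 called without RPA1 shRNA array 3). Under RPA1 shRNA 1 of them rose and 1 fell (1 rise and 0 to 1 falls with 1 array left out). The median of the 11 was 0.12 under HSF1 shRNA and 0.00 under RPA1 shRNA. Of 5 cytosolic peptidase genes 2 rose under HSF1 shRNA (1 to 4 with 1 array left out), among them Tpp2 (0.29 ± 0.05, 0.0041). Under RPA1 shRNA 1 rose and 1 fell (1 rise and 0 to 1 falls with 1 array left out). The rise was that of Lap3, by 0.27 ± 0.06 (0.0053). The fall was that of Npepps (-0.24 ± 0.08, 0.038), whose call was lost in 11 of 18 alternatives.

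Other class I and class I-like chains moved both ways under RPA1 shRNA, 3 up and 3 down of 12 measured (1 to 3 and 2 to 3 with 1 array left out), and gave 1 rise and 0 falls under HSF1 shRNA (0 to 2 rises). Mr1, which encodes a class I-like molecule that presents vitamin metabolites, read 11.33, 11.22 and 11.20 under HSF1 shRNA, 10.69, 10.80 and 10.48 under RPA1 shRNA and 11.38, 11.38 and 11.39 in scrambled cells. Mr1 thus fell under RPA1 shRNA (-0.72 ± 0.08, limma adjusted p = 0.00014), the opposite direction to Tap1, and the knockdowns differed (0.59 ± 0.08, 0.00083). H2-M3, a chain that presents formylated peptides, read 9.62, 9.48 and 9.46 under HSF1 shRNA, 9.05, 9.03 and 8.93 under RPA1 shRNA and 9.29 in all 3 scrambled arrays, and the knockdowns differed by 0.52 ± 0.06 (adjusted p = 0.00036). H2-M2 rose under RPA1 shRNA (0.77 ± 0.14, 0.0024), with group means of 5.53, 6.21 and 5.44 in the HSF1 shRNA, RPA1 shRNA and scrambled groups. The gene was dim, since these means lay below the median signal of every array. Class I genes are near copies of each other, and the table does not show how far their probes cross-hybridize.

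Known regulators of the class I genes were measured on the same arrays. Of 19 measured, 6 rose and 1 fell under HSF1 shRNA and 7 rose and 2 fell under RPA1 shRNA. With 1 array left out, 4 to 6 rose and 0 to 2 fell under HSF1 shRNA, and 6 to 10 rose and 1 to 3 fell under RPA1 shRNA. Nlrc5, the coactivator of class I genes, read 10.30, 10.36 and 10.43 under HSF1 shRNA, 10.87, 10.76 and 10.64 under RPA1 shRNA and 10.47, 10.15 and 10.36 in scrambled cells. The RPA1 shRNA arrays lay above all others. Nlrc5 rose under RPA1 shRNA (0.43 ± 0.09, adjusted p = 0.0049), stood at 0.04 ± 0.09 under HSF1 shRNA (0.84), and the knockdowns differed (-0.40 ± 0.09, limma adjusted p = 0.011). Stat2 rose under HSF1 shRNA (0.77 ± 0.09, 0.00064) and RPA1 shRNA (0.76 ± 0.09, 0.00022), as did Irf7 (0.77 ± 0.14, 0.0069, and 1.05 ± 0.14, 0.00053) and Irf9 (0.51 ± 0.09, 0.004, and 0.61 ± 0.09, 0.00057), all of them interferon signalling factors. Rela, a subunit of NF-kB, rose by 0.52 ± 0.06 under RPA1 shRNA (0.00018). Stat3 differed between the knockdowns (0.49 ± 0.05, 0.00029). It averaged 12.22 under HSF1 shRNA, 11.73 under RPA1 shRNA and 12.11 in scrambled cells. The 1 fall under HSF1 shRNA was that of Irf2, which averaged 10.32, 10.72 and 10.62 in the same order. That call was lost in 5 of 18 alternatives.

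Of 12 interferon, receptor and feedback genes 4 rose and 0 fell under HSF1 shRNA, and 1 rose and 4 fell under RPA1 shRNA. Without RPA1 shRNA array 3 the counts were 6 and 1 under HSF1 shRNA and 2 and 4 under RPA1 shRNA, and over all arrays left out in turn the rises ranged from 3 to 6 and from 1 to 2 and the falls from 0 to 1 and from 2 to 4. Usp18, an interferon-induced inhibitor of the receptor, rose under HSF1 shRNA (1.22 ± 0.17, limma adjusted p = 0.0016) and RPA1 shRNA (1.51 ± 0.17, 0.00017). The type I interferon receptor genes fell under RPA1 shRNA, Ifnar2 by 0.73 ± 0.06 (4.3e-05) and Ifnar1 by 0.36 ± 0.05 (0.00039). In HSF1 shRNA, RPA1 shRNA and scrambled cells the interferon gene Ifnb1 averaged 6.09, 6.08 and 6.07 and Ifng 7.11, 7.19 and 7.12. These means lay below the median signal of every array. Of 7 class II genes 1 rose under HSF1 shRNA (0 to 1 with 1 array left out) and 2 under RPA1 shRNA (1 to 3). Among them the invariant chain gene Cd74 read 10.25, 10.19 and 10.12 under HSF1 shRNA, 10.51, 10.55 and 9.86 under RPA1 shRNA and 9.39, 9.43 and 9.65 in scrambled cells. It rose under HSF1 shRNA (0.70 ± 0.16, 0.017) and RPA1 shRNA (0.82 ± 0.16, 0.004), with RPA1 shRNA array 3 again the lowest of its group. The Cd74 call under HSF1 shRNA was lost in 4 of 18 alternatives, without HSF1 shRNA array 1 (0.66, adjusted p = 0.061) or 2 (0.69, 0.057) and without scrambled array 1 (0.65, 0.069) or 2 (0.67, 0.065), and the call under RPA1 shRNA in 0.

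**Figure D4:**
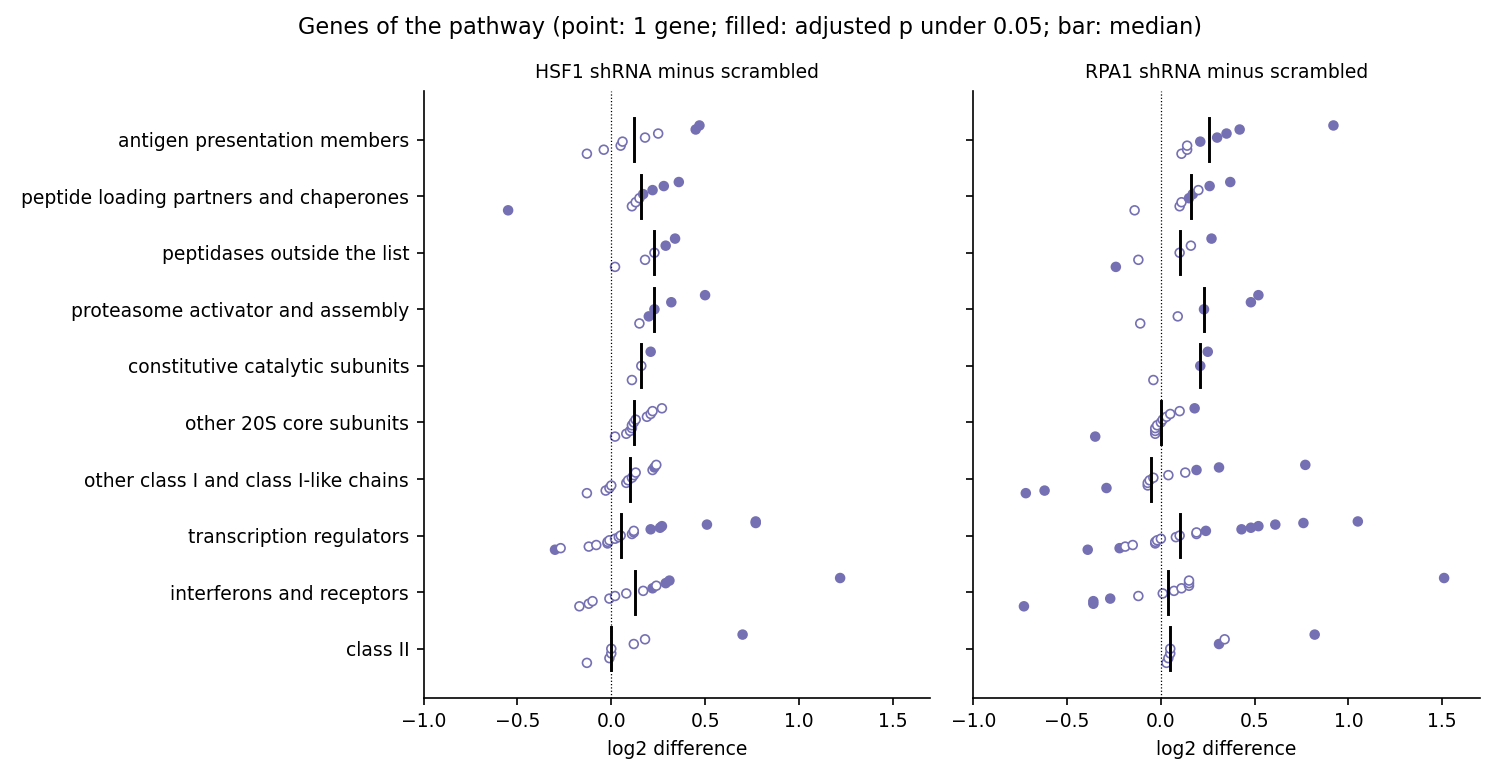
Log2 difference from scrambled of each gene in the member list and 9 lists of partner genes, under HSF1 shRNA (left) and RPA1 shRNA (right). Each point is 1 gene, filled where the limma adjusted p was under 0.05, and the bar is the list's median, which for the members is 0.12 under HSF1 shRNA and 0.26 under RPA1 shRNA.

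Markers of other cell types were set beside these results. Over all genes 16.1% passed under HSF1 shRNA (9.89% as rises) and 30.1% under RPA1 shRNA (15.4% as rises). Of 10 macrophage and dendritic markers 2 rose under HSF1 shRNA (1 to 3 with 1 array left out) and 3 under RPA1 shRNA (3 to 4), and 0 fell by limma. Csf1r, a growth factor receptor gene of macrophages, rose under HSF1 shRNA (0.27 ± 0.07, adjusted p = 0.032) and RPA1 shRNA (0.35 ± 0.07, 0.0046). Lyz2, a lysozyme gene of myeloid cells, also rose under HSF1 shRNA (0.50 ± 0.07, 0.0012) and RPA1 shRNA (0.52 ± 0.07, 0.00033). Both genes were dim. In HSF1 shRNA, RPA1 shRNA and scrambled cells Csf1r averaged 7.38, 7.47 and 7.11 and Lyz2 6.64, 6.66 and 6.14. These means lay below the median signal of every array (7.72 to 7.81), and signal over background was not measured. The summed linear signal of the 10 markers lay between 1450 and 1485 under HSF1 shRNA, 1991 and 2615 under RPA1 shRNA and 1227 and 1307 in scrambled cells. Cd68, a lysosomal gene also used as a macrophage marker, stood at 8.71 ± 0.01 in HSF1 shRNA cells, 10.28 ± 0.40 in RPA1 shRNA cells and 8.23 ± 0.17 in scrambled cells (log2, SD, n = 3). It rose under RPA1 shRNA (2.06 ± 0.17, 2.8e-05) and carried most of the sum's increase there, since the sum of the 9 other markers lay between 1033 and 1070 under HSF1 shRNA, 1052 and 1072 under RPA1 shRNA and 934 and 968 in scrambled cells. The other 7 markers did not pass in either comparison with scrambled, among them the pan-leukocyte gene Ptprc, which averaged 6.08, 6.09 and 5.96 in the same order, and the macrophage gene Adgre1, at 6.06, 6.08 and 5.99. Of 9 T, NK and B cell markers 0 passed by limma in any comparison, with 1 higher at an unadjusted p under 0.05 under each knockdown (0 to 1 called with 1 array left out). The 11 fibroblast markers (counts above) had summed signals of 44475 to 46024, 35568 to 38893 and 47951 to 48895 in the HSF1 shRNA, RPA1 shRNA and scrambled arrays. With 1 array left out, 1 to 2 of them rose and 1 to 6 fell under HSF1 shRNA, and 0 to 1 rose and 7 fell under RPA1 shRNA. Of 6 endothelial markers 1 rose under each knockdown (0 to 2 and 0 to 1 with 1 array left out). Of 6 epithelial markers 1, Krt14, rose under each knockdown (0 to 3 and 1 to 2), and 5 were higher under HSF1 shRNA at an unadjusted p under 0.05 and 2 under RPA1 shRNA. The part of the marker changes in the member results was not tested.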

How the data were processed

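RNA (200 ng per sample) was hybridized to 9 Affymetrix Mouse Gene 1.0 ST arrays. The deposited table holds 1 log2 signal per probe set and array, which the authors made with RMA in Partek 6.5, per the submitters' processing notes. The log base is not stated there and was inferred from the range of the values. Of 35557 rows, 21789 had 1 gene symbol in the array annotation, and each of 19938 genes was read from its brightest row on average. No filter on dim genes was used, and the table holds no detection call.

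Group means were fitted to all arrays with limma 3.58.1 in R 4.3.3 (6 residual and 3.51 prior degrees of freedom), with Benjamini-Hochberg adjustment over all genes and two-sided tests. Simulated data with known changes were used to check the fit. With 3 arrays against 3 the smallest exact p is 0.1, so calls rest on limma's variance model, and 3 arrays per group limit the precision. Differences are given ± SE and levels ± SD.

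The members and lists were chosen with earlier results of these data known. Genes were taken by rule: every member with a row, per list and comparison up to 4 called genes with the largest change, the 5 genes most like the members' mean profile, and Rpa1. Only a part of the list genes so taken is named in the text. Of their 69 calls 26 were lost under at least 1 alternative, and most of those 26 are not given above. Ifnb1 and Ifng were named outside the rule. Markers: the highest and lowest of a list by rule (given for fibroblasts), and others chosen after their values were seen. Promoters are those of RefSeq (GRCm38.p6), searched for 5 motifs on both strands. Protein sequences were not used here. The alternatives were 3 scalings, a filter on dim genes, the mean of rows, an intensity trend, array weights, fits to 6 arrays, a replicate block and leaving out each array.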

Additional observations from a re-analysis of the deposited data

How the results depend on the processing

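Each result was recomputed under 18 alternatives. Of the 9 member calls 7 were kept under all 18, and those of Psmb8 and B2m under RPA1 shRNA were not. Under RPA1 shRNA 8 members passed with array weights. Between the knockdowns 4 passed with quantile scaling, with cyclic loess, among genes above the median gene and with an intensity trend, and 5 with array weights. The cause was not tested. With 1 array left out, member counts ranged from 2 to 3 under HSF1 shRNA, 3 to 7 under RPA1 shRNA and 2 to 5 between the knockdowns. Counts over all genes then ranged from 1953 to 4696, 4642 to 7245 and 3228 to 6539, and with array weights were 5313, 9065 and 7926 in the same order. Arrays with the same replicate number shared little deviation from their group means (correlations of -0.16 to 0.09 over 9 pairs). Whether the numbers pair cultures is not in the labels, and these correlations cannot settle it. With the replicate block the member counts were 3, 4 and 3, against 2, 5 and 2 without it, and all-gene counts 2799, 5692 and 4414, against 3210, 5998 and 4863. Of 69 calls of list genes that the naming rule took, 43 were kept under all alternatives that could give a value. Signal over background was not measured, so changes of dim genes may be understated.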

Other observations

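Changes of neighbouring or exchangeable genes were set against each other within each array, for 4 pairs chosen after the values were seen. The log2 signal of Tap1 minus that of Psmb9, which share the region between their starts, was 0.46, 0.49 and 0.30 under HSF1 shRNA, 1.17, 1.20 and 0.91 under RPA1 shRNA and 0.27, 0.31 and 0.38 in scrambled cells. The RPA1 shRNA arrays did not overlap with either other group, and array 3 lay with its own group here. The gap was wider by 0.78 under RPA1 shRNA than in scrambled cells (two-sided exact permutation p = 0.1, the smallest that 3 against 3 arrays can give, and 0.2 adjusted over the 12 tests of these pairs). Under HSF1 shRNA it differed by 0.10 (exact p = 0.3, adjusted 0.4).

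For the immunoproteasome subunits and the constitutive subunits they replace, only the change in the gap is given, since probe sets cannot be compared in level. Psmb10 minus Psmb7 was higher by 0.26 under HSF1 shRNA and by 0.17 under RPA1 shRNA than in scrambled cells, with no overlap between groups in either comparison (exact permutation p = 0.1 each, 0.2 adjusted). Without scrambled array 1 the second value was 0.13. Psmb9 minus Psmb6 differed by -0.21 under HSF1 shRNA without overlap (exact p = 0.1, adjusted 0.2), and was higher by 0.19 under RPA1 shRNA with overlap (exact p = 0.4, adjusted 0.48). That value was 0.35 without RPA1 shRNA array 3, which lay below all scrambled arrays, and 0.10 and 0.11 without array 1 or 2. Psmb8 minus Psmb5 differed by 0.14 under HSF1 shRNA (exact p = 0.2, adjusted 0.3) and 0.09 under RPA1 shRNA (exact p = 0.5, adjusted 0.545), both with overlap. Under HSF1 shRNA the pairs thus gave differences of both signs, and none reached an adjusted p under 0.05, which this design does not allow.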
